A study of Homo sapiens with 6 samples.

Results

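The family of miR-130, miR-301 and miR-454 was examined in Caco-2 cells through 7 mature miRNAs of the 2588 listed in the count data: hsa-miR-130a-3p, hsa-miR-130b-3p, hsa-miR-301a-3p and hsa-miR-454-3p, which are grouped by a common seed, and the opposite arms hsa-miR-130b-5p, hsa-miR-301a-5p and hsa-miR-454-5p. They were picked by name and not by their measured values, though earlier results of these data were known. Caco-2 is an established line from a human colorectal adenocarcinoma, here grown with no treatment named in the labels. Total RNA was taken as input (3 libraries) or immunoprecipitated after heat denaturation with an antibody against N7-methylguanosine (m7G-RIP, 3 libraries), a comparison that asks which miRNAs carry the m7G modification. The study's protocol describes decapping of the RNA before both fractions are taken and elution with 7-methyl-GTP. The labels number the libraries 1 to 3 in each group but do not say that they came from separate cultures, so p-values measure the spread between these libraries, which may be technical. No library from a control immunoglobulin was analysed here.

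A miRNA is cut from a hairpin precursor whose stem yields a 5p and a 3p arm, and the arm retained by Argonaute pairs with target mRNAs mainly through its seed, bases 2 to 8. In this family the 3p arms carry the common seed, so the members are predicted to share targets, among which the TGF-β receptor TGFBR2 is well studied. METTL1 is the methyltransferase that places internal m7G on tRNAs, and the study asked whether it also acts on miRNAs.

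The mature sequences of the members with an entry in RefSeq (GRCh38.p14) are shown from 5′ to 3′ because the results divide miRNAs that share a seed. The capitals mark the seed.
hsa-miR-130b-3p: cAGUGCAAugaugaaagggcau
hsa-miR-301a-3p: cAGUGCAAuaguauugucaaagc
hsa-miR-454-3p: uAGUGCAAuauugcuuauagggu
hsa-miR-301b-3p (a relative, not a member): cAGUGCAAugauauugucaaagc
hsa-miR-130b-5p: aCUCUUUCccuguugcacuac
hsa-miR-301a-5p: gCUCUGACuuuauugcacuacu
hsa-miR-454-5p: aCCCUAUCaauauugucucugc

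All 4 of the 3p sequences shown have the seed AGUGCAA and differ after it. Aligned from the first base, miR-130b-3p matched miR-301a-3p at 11 of 22 bases and miR-454-3p at 10 of 22, while miR-301a-3p matched miR-454-3p at 13 of 23. miR-301a-3p and miR-301b-3p matched at 21 of 23 bases and differed at 2. The study's stated mapping settings allowed 1 mismatch, so under them an error-free full-length read of one would not map to the other. The submitters' processing notes name another mapper, Bowtie2, and how reads were divided between near-identical miRNAs is not given. The separate counts of this pair are therefore uncertain. The seeds of the 5p arms differed from each other and from that of the 3p arms. miR-130b-3p and miR-454-3p each contain a run of 3 G after the seed, and their 5p partners each contain a run of 3 C, whereas neither arm of miR-301a has a run longer than 1 of either base.

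The hairpins of the members lie at 3 loci. MIR301A (chr17:59151136-59151221, minus strand, GRCh38) and MIR454 (chr17:59137758-59137872, minus strand) are 13263 bases apart, and both lie on the same strand within introns of SKA2, a protein-coding gene of the spindle and kinetochore. MIR130B (chr22:21653304-21653385, plus strand) starts 256 bases after the end of miR-301b-3p and overlaps annotated exons of the long noncoding RNA gene ENSG00000207751. MIR130A (chr11:57641198-57641286, plus strand) lies in an intron of the long noncoding RNA gene MIR130AHG. Each hairpin is its own annotated miRNA gene. The hairpins of the 3 pairs of arms are given from 5′ to 3′ with the mature arms in capitals, the 5p arm first, since both arms of each were measured.
MIR130B: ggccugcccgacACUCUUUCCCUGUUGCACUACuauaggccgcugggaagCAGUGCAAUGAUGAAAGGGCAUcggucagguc
MIR301A: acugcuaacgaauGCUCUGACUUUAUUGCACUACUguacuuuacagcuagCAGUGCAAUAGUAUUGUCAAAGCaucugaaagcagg
MIR454: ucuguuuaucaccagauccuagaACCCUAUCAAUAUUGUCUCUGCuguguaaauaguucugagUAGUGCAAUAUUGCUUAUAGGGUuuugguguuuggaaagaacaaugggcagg

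The libraries held 16466178 to 19628046 counts on miRNAs in the input but only 1654102 to 3105129 after m7G-RIP. Values are given as CPM, the counts in each 1000000 of a library whose size was corrected for composition by edgeR's TMM factors, and 3 counts equal 0.235 to 0.262 CPM in the input and 0.676 to 1.11 CPM in m7G-RIP. Such limits cover counting error only. Each read spans a whole miRNA, so counts were not divided by length. All 5 epithelial miRNAs checked (the miR-200 family with miR-141-3p and miR-429) and all 3 intestinal ones (miR-192-5p, miR-194-5p and miR-215-5p) were detected in the input at 260.2 to 54882 CPM. Of the 8 miRNAs typical of other cell types, the blood markers miR-142-3p, miR-142-5p and miR-223-3p averaged 5.99, 2.62 and 0 CPM in the input. The muscle markers miR-1-3p, miR-133a-3p and miR-206 averaged 644, 60.7 and 0.164 CPM, and the mesenchymal markers miR-143-3p and miR-145-5p 174 and 3.99 CPM.

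The family split by hairpin in log2 enrichment, the log2 ratio of m7G-RIP over input. Both arms of miR-301a were strongly depleted relative to the input, whereas both arms of miR-130b and of miR-454 had log2 enrichments between -0.54 and 0.40, none of which passed the test. None of the 6 members with enough counts to be tested was enriched (0 of 6), against a background of 40.1% of the 800 miRNAs tested. Depletion was called for 2 of 6, hsa-miR-301a-3p and hsa-miR-301a-5p, against 38.1% of all tested, by the quasi-likelihood test of edgeR (called at a p under 0.05 after Benjamini-Hochberg adjustment over the 800). Of these, hsa-miR-301a-3p passed the filter on low counts through the input, the group where it was high. At an unadjusted p under 0.05 there were 0 enriched and 3 depleted members, against 41.4% and 38.6% of all tested, and DESeq2's Wald test called 0 enriched and 5 depleted, against 34.2% and 42.1%. For 2 of 6 members every m7G-RIP library was below every input library, which held for 40.8% of all tested miRNAs, and for 0 of 6 every m7G-RIP library was above, which held for 41.4%. The median log2 enrichment was -0.46 over the 6 tested members and 0.16 over all tested miRNAs.

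**Figure D1:**
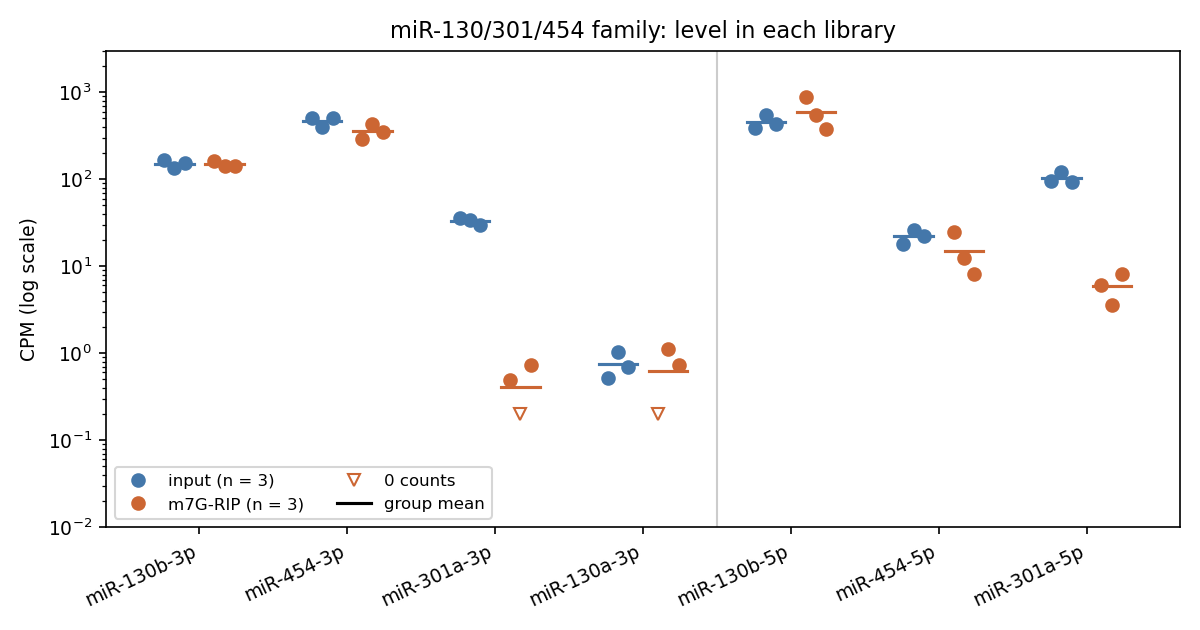
CPM on a log axis of the 7 members in each library, 3p arms on the left and 5p arms on the right, with input in blue, m7G-RIP in orange, bars at group means and open triangles for libraries with 0 counts (drawn at an arbitrary height). Only for miR-301a-3p and miR-301a-5p do all m7G-RIP libraries lie below all input libraries.

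Among the 3p arms, hsa-miR-301a-3p showed the largest change. It had 415, 430 and 342 counts in input replicates 1, 2 and 3 and 2, 0 and 2 counts in the m7G-RIP replicates. These correspond to 35.4, 33.7 and 29.8 CPM in the input and 0.486, 0 and 0.737 CPM in m7G-RIP. All m7G-RIP libraries were thus at or below the level of 3 counts, and all input libraries were far above it. hsa-miR-301a-3p therefore passed the filter on low counts through its input libraries, the group where it was high. Its test describes these counts and gives no support for the direction apart from them. The log2 enrichment was -6.46 (standard error, SE, 0.49, edgeR adjusted p = 5.67e-08), and only 11 of the 800 tested miRNAs had a lower value. Because it rests on 4 counts in m7G-RIP against 1187 in the input, the ratio of the summed counts is given as well: 0.0107 after scaling, with an exact binomial 95% interval of 0.00292 to 0.0276 for counting error. On the log2 scale this counting interval is wider than the 95% interval from edgeR, -7.52 to -5.40. The SE of miR-301a-3p therefore understates the uncertainty at so few counts.

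hsa-miR-130b-3p, which has the same seed, did not separate between the groups. It measured 165, 133 and 154 CPM in the input and 160.0, 143 and 142 CPM in m7G-RIP, so the groups overlapped. The log2 enrichment was -0.02 (SE 0.16, 95% interval -0.37 to 0.32, edgeR adjusted p = 0.898). The interval leaves room for changes of up to about that size in either direction.

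hsa-miR-454-3p lay between 395 and 509 CPM in the input (502, 395 and 509) and measured 291, 433 and 352 CPM in m7G-RIP. The lowest m7G-RIP libraries were below the input, but replicate 2 overlapped it. The log2 enrichment of -0.39 (SE 0.17, 95% interval -0.76 to -0.01) did not pass the threshold after adjustment (edgeR adjusted p = 0.0566). It passed without input replicate 2 (-0.49), m7G-RIP replicate 2 (-0.70) or m7G-RIP replicate 3 (-0.46), with edgeR adjusted p-values of 0.0382, 0.00533 and 0.0398. It also passed when each library had to hold 10 counts or more of a miRNA (-0.52, edgeR adjusted p = 0.015).

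hsa-miR-130a-3p was barely present in these cells, with 6, 13 and 8 counts in the input and 0, 5 and 2 in m7G-RIP, and did not pass the filter on low counts. The scaled ratio of its summed counts was 0.827, with an exact binomial 95% interval of 0.304 to 1.95. This interval, for counting error only, includes 1.

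Of the 5p arms, hsa-miR-301a-5p was depleted like its 3p partner. It measured 94.2, 120.1 and 93.6 CPM in the input and 6.07, 3.60 and 8.11 CPM in m7G-RIP, on 16 to 25 counts per m7G-RIP library. No m7G-RIP library came near the input. The log2 enrichment was -4.16 (SE 0.28, edgeR adjusted p = 1.81e-08), a 17.9-fold lower level.

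hsa-miR-130b-5p measured 389.5, 546 and 426 CPM in the input and 875, 542 and 375 CPM in m7G-RIP. The m7G-RIP libraries ranged from below to well above the input. The log2 enrichment was 0.40 (SE 0.25, 95% interval -0.14 to 0.94, edgeR adjusted p = 0.157). m7G-RIP replicate 1 carried this value: without it the log2 enrichment was -0.02 (adjusted p = 0.947, edgeR), and without m7G-RIP replicate 3 it was 0.55 and passed the threshold (adjusted p = 0.0268, edgeR).

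hsa-miR-454-5p, the least abundant tested member in the input, measured 17.8, 26.0 and 22.5 CPM in the input and 24.5, 12.4 and 8.11 CPM in m7G-RIP. Of the m7G-RIP libraries 1 lay within the input range and the others below it. The log2 enrichment was -0.54 (SE 0.35, 95% interval -1.29 to 0.21, edgeR adjusted p = 0.169). Without m7G-RIP replicate 1 it was -1.11 (adjusted p = 0.00262, edgeR).

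**Figure D2:**
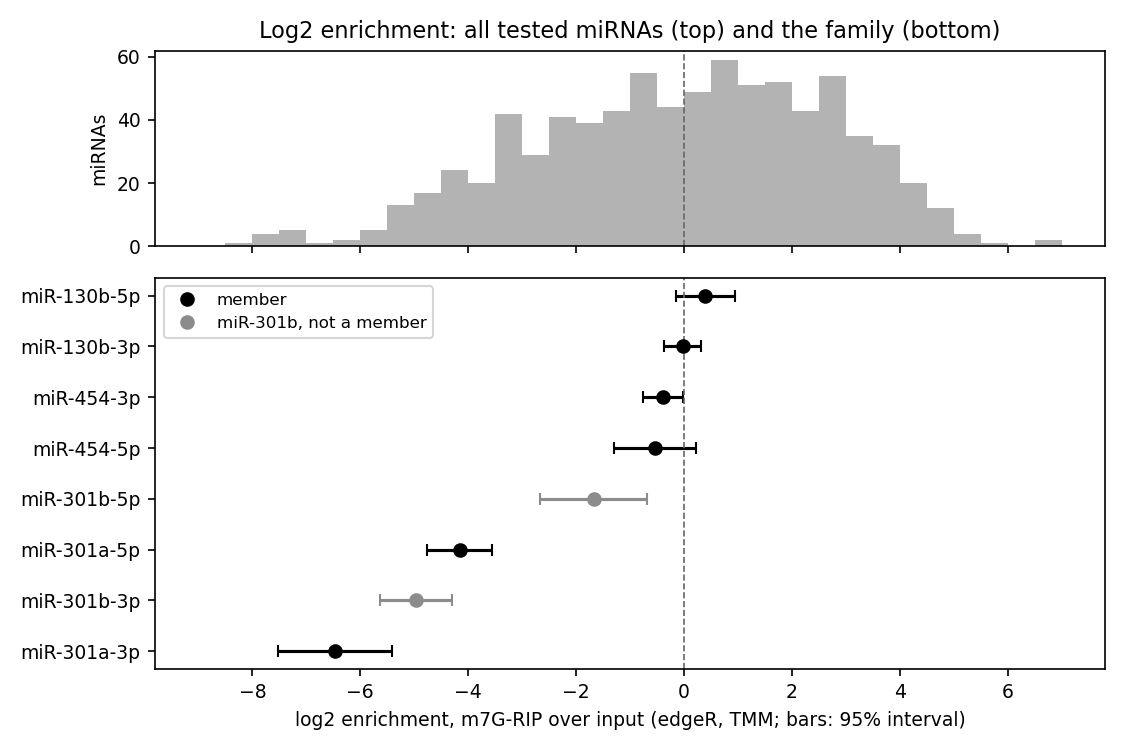
Top, number of miRNAs by log2 enrichment of m7G-RIP over input for all 800 tested. Bottom, log2 enrichment of the 6 tested members (black) and of both arms of miR-301b (grey) with 95% intervals. With TMM scaling the intervals of miR-130b-5p, miR-130b-3p and miR-454-5p include 0, that of miR-454-3p ends at -0.01, and those of miR-301a lie below -3.55. The interval drawn for miR-301a-3p is narrower than its interval for counting error.

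The zero of this scale depends on how libraries are scaled, and 4 members lay near it. With total counts in place of TMM the log2 enrichment of all tested miRNAs moved by a median of 1.09, and 3 of 6 members were then enriched (miR-130b-3p, miR-130b-5p and miR-454-3p), against 55.2% of all tested. In DESeq2's Wald test, where the median moved by -0.34, 5 of 6 members were depleted, all but miR-130b-5p, against 42.1% of all tested. The arms of miR-130b and miR-454 therefore have no direction apart from the choice of scaling, except that miR-130b-5p was above 0 under each scaling run. The depletion of both arms of miR-301a was called in every alternative run that tested them. The family as a whole took 0.0842% ± 0.0023 (SD, n = 3) of all counts in the input and 0.163% ± 0.0177 (SD, n = 3) in m7G-RIP, shares that are not corrected for composition.

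Ratios between members within a library do not depend on this scaling. The 4 members of the 3p arm form 6 pairs, and each pair's log2 ratio (with 0.5 added to every count) was compared between the groups by a two-sided exact permutation test. With 3 against 3 libraries p cannot fall below 0.1, so no pair could pass 0.05. The libraries did not overlap for 3 of the 6 pairs, each of which includes miR-301a-3p, so these pairs are not separate findings. The share of such pairs among all tested miRNAs was not computed. For single miRNAs, every m7G-RIP library was below every input library in 40.8% of those tested and above in 41.4%. The log2 ratio of miR-130b-3p to miR-301a-3p was 2.19 ± 0.20 (SD, n = 3) in the input and 8.54 ± 1.58 (SD, n = 3) in m7G-RIP, a difference of 6.35 (exact permutation p = 0.1, adjusted over the 6 pairs 0.2). With 5 added to every count this difference was 4.28. Its size thus depends on the added count, as miR-301a-3p had 2, 0 and 2 counts in m7G-RIP. For miR-130b-3p over miR-454-3p the difference was 0.38, with overlapping libraries (exact permutation p = 0.2, adjusted 0.3) and a range of 0.18 to 0.55 with each library left out.

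Members made from neighbouring hairpins diverged. miR-454 and miR-301a lie in introns of the same gene, yet the log2 ratio of miR-454-3p to miR-301a-3p was 3.55 to 4.09 in the input libraries but 8.58 to 11.9 in m7G-RIP, a difference of 5.97 (exact permutation p = 0.1, adjusted 0.2). Here too the size depends on the added count: with 5 added, the difference for the inverse ratio, miR-301a-3p over miR-454-3p, was -3.90. The log2 ratio of miR-454-5p to miR-301a-5p also rose, from -2.40 to -2.05 in the input, where miR-301a-5p was the more abundant, to between 0 and 1.99 in m7G-RIP, where it was not. A like division was seen at the other cluster, between miR-130b and its neighbour miR-301b. The log2 ratio of miR-130b-3p to miR-301b-3p was 0.35 to 0.77 in input libraries but 5.03 to 6.66 after m7G-RIP, and that of the 5p arms was 4.91 to 5.18 and 5.78 to 8.77, respectively. The last 3 of these ratios were described and not tested.

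Of 5 further family entries, 2 passed the filter on low counts and both were depleted, against 38.1% of all tested miRNAs. hsa-miR-301b-3p, which is nearly identical to miR-301a-3p, fell from 96.8, 104 and 91.9 CPM in the input to 1.46, 4.28 and 3.68 CPM in m7G-RIP, that is by 4.97 on the log2 scale (SE 0.31, edgeR adjusted p = 7.44e-09). hsa-miR-301b-5p measured 13, 15 and 12.9 CPM in the input and 5.58, 1.13 and 6.63 CPM in m7G-RIP, a log2 enrichment of -1.68 (SE 0.46, edgeR adjusted p = 0.0043). As with miR-301a, all m7G-RIP libraries were below all input libraries for both arms, which held for 40.8% of all tested miRNAs. The remaining entries, hsa-miR-130a-5p, hsa-miR-4295 and hsa-miR-3666, had at most 2 counts in any library.

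The make-up of the family differed between the fractions. As a share of the counts of the 7 members, miR-301a-5p fell from 8.32% ± 1.09 to 0.56% ± 0.314 (SD, n = 3 each) and miR-301a-3p from 2.68% ± 0.26 to 0.0396% ± 0.0417. These were the members whose shares did not overlap between the groups. miR-130b-5p made up 36.8% ± 5.93 of the input and 51.5% ± 11.6 of m7G-RIP, and miR-454-3p 38.1% ± 5.73 and 33.1% ± 10.1, with overlapping libraries. miR-130b-3p held 12.3% ± 1.58 and 13.5% ± 2.25, miR-454-5p 1.79% ± 0.299 and 1.27% ± 0.473, and miR-130a-3p 0.06% ± 0.0196 and 0.0608% ± 0.0532.

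The arms of one hairpin were compared by the log2 ratio of 3p to 5p counts within each library, fitted with limma over the 194 hairpins for which both arms were tested. In the input the arms of the family were used differently. miR-454 was nearly all 3p, at 96.6%, 93.8% and 95.8% of the counts of both arms in the input libraries. miR-130b gave mostly the 5p arm, with 29.8%, 19.6% and 26.6% as 3p, and so did miR-301a, with 27.3%, 21.9% and 24.2%.

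In m7G-RIP the balance of arms shifted for miR-301a, whose 3p share was 7.41%, 0% and 8.33% there, on 27, 16 and 24 counts of both arms. The 0 of 16 counts in replicate 2 allows a share of up to 18.8%. The log2 ratio changed by -2.22 (95% interval -3.58 to -0.87, adjusted p = 0.0132 from limma), toward a lower share of the 3p arm. The hairpin entered this fit because its 3p arm passed the filter on low counts through the input. Whether the 3p arm was depleted further than the 5p arm is therefore not settled by this test. For 1 of 3 hairpins of the family the ratio was called lower and for 0 of 3 higher, against 46.9% lower and 21.6% higher of all 194. The change of miR-301a sits on few counts: without input replicate 1 it was -2.11 and no longer passed (adjusted p = 0.0544, limma), and with 5 in place of 0.5 added to each count it was -0.42 (adjusted p = 0.138, limma).

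For miR-130b the 3p share was 15.5%, 20.9% and 27.5% in m7G-RIP, overlapping the input, and the log2 ratio differed by -0.34 (95% interval -1.15 to 0.46, adjusted p = 0.381 from limma). For miR-454 it was 92.2%, 97.2% and 97.8%, and the log2 ratio differed by 0.28 (95% interval -1.0 to 1.57, adjusted p = 0.661 from limma). Neither difference passed the threshold, and the intervals are wide. The neighbour miR-301b changed in the direction of miR-301a, by -3.12 (95% interval -5.35 to -0.89, adjusted p = 0.0228 from limma), but its m7G-RIP libraries scattered, with 20.7%, 79.2% and 35.7% as 3p after 88.2%, 87.4% and 87.7% in the input.

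**Figure D3:**
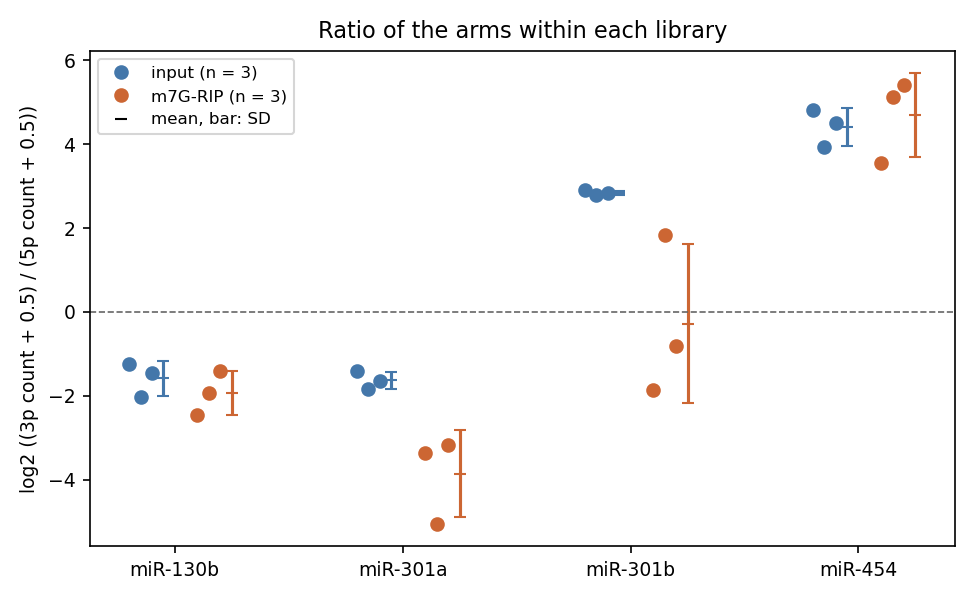
Log2 ratio of 3p to 5p counts (with 0.5 added to each) in every input (blue) and m7G-RIP (orange) library for 4 hairpins of the family, with means and SDs to the right of the points; miR-301b is not a member. The groups are apart for miR-301a and miR-301b and overlap for miR-130b and miR-454.

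Both arms of miR-301a and of miR-301b had low log2 enrichments, while those of miR-130b (-0.02 and 0.40 for 3p and 5p) and of miR-454 (-0.39 and -0.54) lay near 0. Across the 194 hairpins the log2 enrichment of the 3p arm was related to that of the 5p arm with Pearson's r of 0.432 and Spearman's rho of 0.467, a description across miRNAs measured in the same libraries. In 59 hairpins both arms were called depleted, among them miR-301a and miR-301b, in 40 both were called enriched and in 36 the arms were called in opposite directions.

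**Figure D4:**
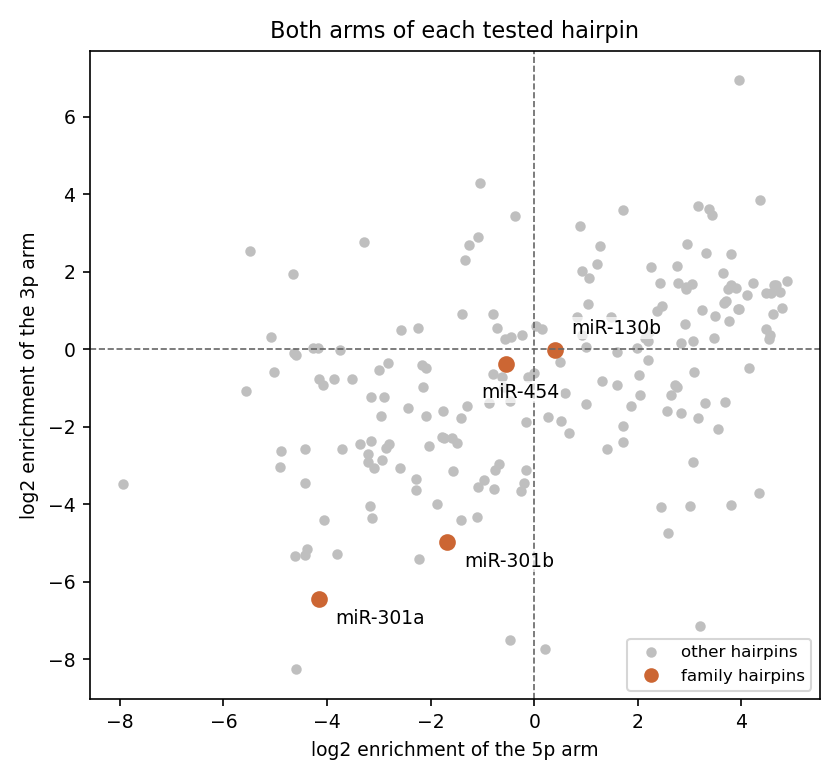
Log2 enrichment of the 3p arm (vertical) against that of the 5p arm (horizontal) for the 194 hairpins with both arms tested, with 4 hairpins of the family in orange. miR-130b and miR-454 lie near the origin, and miR-301a and miR-301b lie where both arms are depleted.

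Guanosine is the base that carries m7G, and the members differ in it. G made up 31.8% of miR-130b-3p, 26.1% of miR-454-3p and 21.7% of miR-301a-3p and of miR-301b-3p. The first 3 of these sequences fall in the same order by log2 enrichment, and miR-301b-3p, with the G content of miR-301a-3p, has a higher value than it. The 5p arms held fewer, with 13.6% in miR-301a-5p, 9.52% in miR-130b-5p and 9.09% in miR-454-5p, and here the arm with the most G was the depleted one. Over the 714 tested miRNAs with a RefSeq mature sequence the percentage of G was related to log2 enrichment with Pearson's r of 0.498 and Spearman's rho of 0.497. This too is a description across miRNAs of the same libraries. miR-301a-3p stood at the 31.5th percentile of these miRNAs in G content and at the 1.5th percentile of tested miRNAs in log2 enrichment. miR-130b-5p, with 2 G in 21 bases, stood at the 8.54th and 53.1st percentiles.

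The longest run of G divided the 3p arms in the same way. It was 3 in miR-130b-3p and miR-454-3p and 1 in miR-301a-3p and miR-301b-3p. The last 2 match at 21 of 23 bases and their separate counts are uncertain, so they are not separate cases. The median log2 enrichment was -0.63 for the 184 tested miRNAs whose longest run was 1, -0.97 for the 268 with 2, 0.92 for the 152 with 3 and 2.84 for the 109 with 4 or more. miR-130b-3p (-0.02) and miR-454-3p (-0.39) were below the median of their class, and miR-301a-3p (-6.46), miR-301b-3p (-4.97) and miR-301a-5p (-4.16) far below that of theirs. The longest run was also 1 in miR-130b-5p and miR-454-5p, so it did not divide the 5p arms. Whether G content or runs of G cause any of these differences was not tested.

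**Figure D5:**
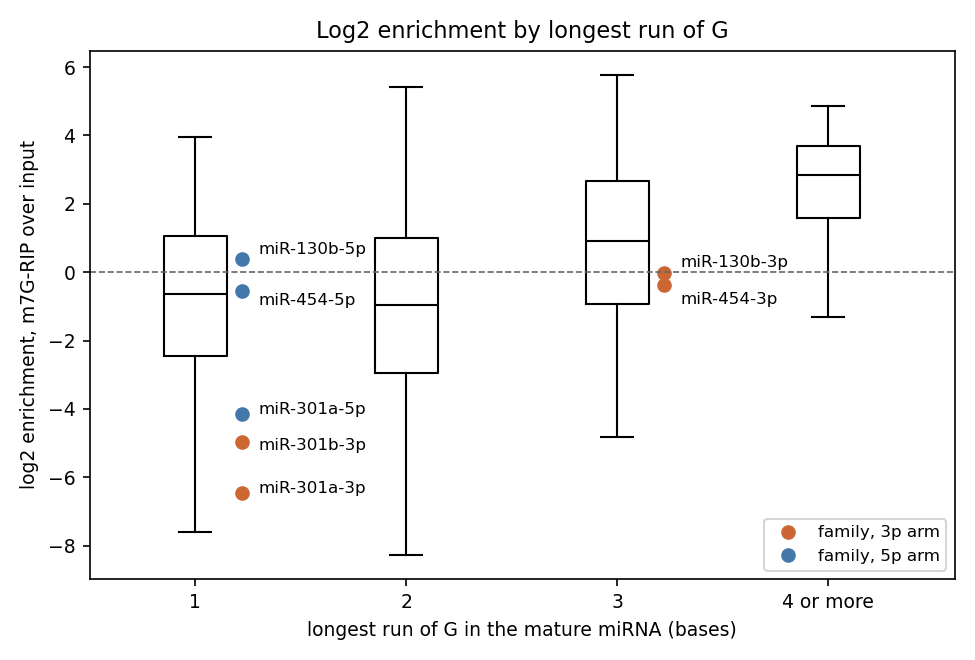
Log2 enrichment of tested miRNAs by the longest run of G in the mature sequence, as boxes of median and quartiles with whiskers to at most 1.5 times the interquartile range, and the family's 3p (orange) and 5p (blue) arms as points to the right of their class. The 3p arms with a run of 3 lie near 0, and those with a run of 1 lie at -4.97 and -6.46.

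The G-score, the highest mean over 20 bases of a score that is positive in runs of G and negative in runs of C, was computed for the hairpins as the study's methods define it. It was 0.75 for MIR130B, 0.95 for MIR454 and 0.15 for MIR301A, at the 50.3rd, 62.1st and 2.12th percentiles of the 1560 RefSeq hairpins. A loose G-quadruplex pattern, 4 stretches of 2 or more G with 1 to 7 bases between neighbouring stretches, was searched on the strand of the RNA. It was in none of these 3 hairpins and in 29.2% of all of them, and its absence says only that these letters are not in the hairpin as annotated.

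The tested miRNAs with the most similar profile were sought for each tested 3p member. The measure was the Euclidean distance between log2 values of CPM, with 0.5 added, over the 6 libraries, centred on their mean. The added 0.5 flattens the fall of miR-301a-3p, whose m7G-RIP values were 0.486, 0 and 0.737 CPM. For miR-301a-3p the nearest were miR-934 at a distance of 0.37 and miR-30e-5p at 0.76, where the median distance to all tested miRNAs was 6.69. Their log2 enrichments, -5.24 and -5.08, were less extreme than that of miR-301a-3p, -6.46. For miR-130b-3p they were miR-18a-3p at 0.19 and miR-152-3p at 0.28, with a median of 2.40, and for miR-454-3p they were miR-501-5p at 0.22 and miR-652-3p at 0.26, with a median of 2.54. None of these 6 belongs to the family.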

How the data were processed

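Small RNA libraries (NEBNext kit, single-end 50-base reads) were sequenced from 3 input and 3 m7G-RIP samples of Caco-2 cells. The deposited values are raw counts per mature miRNA, without normalization and with replicates kept apart. Per the study's methods, the authors trimmed adaptors with Trimmomatic, mapped reads to GRCh38 with STAR allowing 1 mismatch and up to 10 loci, and counted them with featureCounts on miRBase 22; the submitters' processing notes name Bowtie2 instead. How reads with several loci were counted is not given in the sources used here.

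miRNAs were kept by filterByExpr (minimum count 10, minimum total 15), scaled with TMM factors and tested with edgeR 4.0.16 (quasi-likelihood, group as the only term) in R 4.3.3, with Benjamini-Hochberg adjustment over the 800 miRNAs tested. The standard error is the absolute log2 enrichment divided by the square root of F. The authors used DESeq2's Wald test, which was run here as an alternative (DESeq2 1.42.0). Ratios of arms were fitted with limma 3.58.1 with a trend on mean log2 count. Both steps were tested on simulated data. The enrichments planted there were smaller than those of miR-301a, and all miRNAs had the same dispersion. The simulation therefore does not show how the tests perform at its few counts. Python 3.11.15 with scipy 1.17.1 and matplotlib 3.10.9 served for sequences and plots. Sequences and coordinates are from RefSeq (GRCh38.p14), of which 10 of the 12 family names had a mature entry, and overlapping genes are from GENCODE 44 on GRCh38.

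The text names the 7 members, 5 other entries of the family and, for each tested 3p member, the 2 miRNAs with the nearest profile. The members and lists were chosen with earlier results of these data known. Libraries were grouped by their titles. Counts of libraries of one group differed beyond sampling noise (chi-square divided by its degrees of freedom, 17.5 to 105), so none was counted as a duplicate. Reads carry no molecular identifiers, so counting intervals take no account of amplification. Alternatives were other scaling factors, DESeq2, other filters, the replicate number as a block, a stricter threshold, other added counts and leaving out each library.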

Additional observations from a re-analysis of the deposited data

How the results depend on the processing

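The depletion of both arms of miR-301a kept its direction and its call under every scaling, test, filter that tested it, block and left-out library (log2 enrichment -7.14 to -5.92 for miR-301a-3p and -4.50 to -4.01 for miR-301a-5p with each library left out), but miR-301a-3p was not tested with at least 10 counts in every library. The number of members called depleted, 2 as reported, was 5 of 6 with DESeq2's size factors (42.8% of all tested miRNAs), 5 of 6 in DESeq2's Wald test (42.1%), 4 of 7 without a filter (24.3%), and 2 to 3 with each library left out (35% to 39%). It was also 2 with at least 10 counts in every library (41.1%), but there miR-454-3p was called and miR-301a-3p not tested. The number called enriched, 0 as reported, was 3 of 6 with upper-quartile factors (52.2% of all tested), 3 of 6 with total counts (55.2%), and 0 to 1 with each library left out (31.8% to 40.4%). In the same settings the median of all tested miRNAs shifted by -0.34 with DESeq2's size factors, -0.31 without a filter, 0.82 with upper-quartile factors and 1.09 with total counts. Signs turned with total counts for miR-130b-3p (1.07), miR-454-3p (0.71) and miR-454-5p (0.52), and with upper-quartile factors for the same members (0.80, 0.43 and 0.29). With each library left out, miR-130b-3p ranged from -0.15 to 0.064 and miR-130b-5p from -0.016 to 0.56.

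With the replicate number as a block, 0 members were enriched and 2 depleted (37% and 36.9% of all tested), and log2 values of the members lay between -6.47 and 0.32. The ratio of arms was still called for 1 hairpin, against 38 called higher and 85 lower of all 194. The block changed no call of a member. The numbers were not taken as pairing the libraries, because the labels do not say whether same-numbered libraries share an RNA sample. The study's protocol sets aside an aliquot of the denatured RNA as input, so they may. Deviations of same-numbered libraries correlated between -0.0394 and 0.0714, and only 2 of 6 libraries correlated best with their own number. With so few libraries this cannot show that they were unpaired.

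The number of hairpins called shifted, 1 as reported, was 0 with 5 added to each count. It was 0 with at least 10 counts of both arms, where miR-301a was not tested, and 0 to 1 with each library left out. Of all 194 hairpins, 50 were called higher and 96 lower with 5 added. With at least 10 counts of both arms these were 29 and 47 of 92. With each library left out, 33 to 46 were called higher and 70 to 98 lower of 194. The shift of miR-454 ranged from -0.074 to 0.85 with each library left out. The number of 3p pairs without overlap, for which no share over all tested miRNAs was computed, was 3 as reported. It was 4 with 5 added to each count and 3 to 4 with each library left out. The cause of these changes was not tested. Differences for miR-130a-3p, on 0 to 13 counts, turned sign easily: against miR-130b-3p to 0.76 with 5 added to each count and, leaving out each library, from -1.19 to 0.57. Against miR-454-3p they were 0.23 with 1 and 1.14 with 5 added and, leaving out each library, from -0.64 to 0.75.

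In m7G-RIP miR-130a-3p had 7 counts in all and miR-301a-3p 4, so their values rest on few counts. For miR-454-5p, with 178 counts, the m7G-RIP libraries ranged from 8.11 to 24.5 CPM.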

Other observations

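hsa-miR-130a-3p entered the test under some alternatives. Without a filter its log2 enrichment was -0.56 (SE 0.94, edgeR adjusted p = 0.613). With m7G-RIP replicate 1, 2 or 3 left out it was 0.33, -1.41 and -0.44, with adjusted p-values of 0.715, 0.298 and 0.691 (edgeR). Its opposite arm, hsa-miR-130a-5p, had 2, 2 and 1 counts in the input and 0 in every m7G-RIP library, and hsa-miR-4295 had a single count, in input replicate 2.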
